A study of Mus musculus with 29 samples.

Results

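Hemidesmosomes are the junctions that fasten a basal epithelial cell to the basement membrane. In them the integrin pair α6β4 and collagen XVII span the membrane, the plakins plectin and dystonin tie both to the keratin filaments inside, and outside the pair binds laminin-332, the laminin of the anchoring zone. The urothelium, the lining of the bladder, carries these junctions in its basal layer. The genes followed here were 8, taken by symbol from tables of 35199 genes. They were Col17a1 (collagen XVII), Itga6 and Itgb4 (the integrin chains), Lama3 and Lamb3 (the α3 and β3 chains of laminin-332), Dst (dystonin, whose epithelial isoform is BPAG1e), Plec (plectin) and Cd151 (a tetraspanin that binds laminin-binding integrins), and each passed the filter on low values in every comparison.

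The study used mice in which a tamoxifen-inducible Cre driven from the Krt5 promoter switches on VP16;Pparg, a transcriptionally active form of the nuclear receptor Pparg, in basal cells (K5VP16;Pparg). The 29 mouse samples include Gfp-positive cells sorted from untreated bladders 4 days after tamoxifen, with 4 control and 5 mutant libraries, and laser-captured tumor cells labelled with 5 months of the carcinogen BBN and titled 4 months. The tumor libraries were 3 of basal tumors from control mice, 3 of luminal tumors, 3 of the luminal domain and 3 of the basal-like domain of mixed K5VP16;Pparg lesions. The labels call the mutants K5VP16;Pparg+/- and the controls wild type, whereas the study describes sorted control cells that carry the Krt5 Cre driver and the mTmG reporter (K5;mTmG), and control tumors either of that genotype or with the transgene and no Cre (VP16;Pparg fl/fl). Mice were given tamoxifen as adults, and the transgene is expressed only after the Krt5-driven Cre has removed a stop cassette. Nothing in the labels says which libraries come from separate mice, nor whether the domains of a pair come from 1 lesion, so p-values measure the spread between these libraries.

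Values are the authors' normalized counts, estimated read counts per gene scaled between the libraries of a table, and they are compared only within a table, with libraries named by the codes of the table columns. Library sums were 36520193 to 41435665 in the 4-day table and 41697178 to 53904714 in the tumor tables, but the depth in reads is unknown. Changes are log2 fold changes of normalized count + 1 from limma, with Benjamini-Hochberg adjustment over all genes tested, and a gene was called at an adjusted p under 0.05. The targeted gene does not separate the transgene from endogenous Pparg: in the 4-day table Pparg was listed at 9381 to 9999 in controls and 6111 to 9032 in mutants (limma adjusted p = 0.126). Fabp4, which the paper names a direct target of Pparg, read 206.5 to 466.9 normalized counts in these controls and 4969 to 30598 in the mutants. The sorted cells carried basal urothelial markers (Krt5, Krt14, Trp63, Krt15) that summed to 294510 to 333442 normalized counts in controls and 144293 to 267648 in mutants. They carried superficial urothelial markers (uroplakins and Krt20) as well, at 152447 to 327560 in controls and 205147 to 350478 in mutants, so the label of basal cells rests on the sort of Gfp-positive cells and not on an absence of superficial genes. The Y-linked genes Ddx3y, Uty, Kdm5d and Eif2s3y divided the 4-day libraries, with Eif2s3y at 3282 to 3588 in the controls CT065, CT066 and CT067, at 33.3 in the control CT063 and at 8.68 to 21.3 in the mutants. In bulk libraries, fewer cells of a type and less RNA per cell cannot be told apart.

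Col17a1 and Dst lay below the reference group in every library of 3 comparisons, so the sequences before their start sites are shown. Of all genes tested, 4.51% did so at 4 days, 11.6% in luminal tumors and 12.8% in luminal domains. The share that did so in all 3 was not computed. The comparisons with basal tumors share those basal tumor libraries, and Dst was not called in any of the 3. Col17a1 lies at chr19:47646344-47692094 on the minus strand and Dst at chr1:33908225-34308661 on the plus strand (GRCm38, GENCODE). Itga6 lies at chr2:71745616-71858416, Itgb4 at chr11:115974709-116008412, Lamb3 at chr1:193207699-193343878, Plec at chr15:76170974-76232574 and Cd151 at chr7:141467392-141471473. Dst has 20 annotated transcripts there, and the counts do not tell its epithelial isoform from the neural and muscle ones. RefSeq entries were matched for 4 of the 8 genes, and the stretches below are the parts of the 250 bases before the RefSeq start (GRCm38.p6) that no GENCODE exon covers, written 5′ to 3′ on the strand of the gene. Capitals mark TATAAA in Col17a1 and the E-box CACCTG in Dst, searched on both strands.
Col17a1 (chr19:47692095-47692292, minus strand, 198 bases): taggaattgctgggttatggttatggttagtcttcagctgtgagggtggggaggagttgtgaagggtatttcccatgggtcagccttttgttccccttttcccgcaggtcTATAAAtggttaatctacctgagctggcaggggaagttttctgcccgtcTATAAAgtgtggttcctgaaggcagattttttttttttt
Dst, first start (chr1:34011345-34011594, plus strand): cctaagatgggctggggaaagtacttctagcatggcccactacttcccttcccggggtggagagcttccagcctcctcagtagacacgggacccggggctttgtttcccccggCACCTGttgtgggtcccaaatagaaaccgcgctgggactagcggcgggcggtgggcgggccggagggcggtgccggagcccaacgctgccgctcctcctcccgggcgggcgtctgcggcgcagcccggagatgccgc
Dst, second start (chr1:34160010-34160259, plus strand): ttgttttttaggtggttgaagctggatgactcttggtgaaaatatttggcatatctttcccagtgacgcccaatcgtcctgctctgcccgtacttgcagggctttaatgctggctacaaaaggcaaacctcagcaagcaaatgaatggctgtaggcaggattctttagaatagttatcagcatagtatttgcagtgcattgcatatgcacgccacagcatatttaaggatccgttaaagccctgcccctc
Col17a1 held 2 matches of TATAAA, letters found in 12.4% of 32851 RefSeq windows of the same length. The first Dst start held 1 match of CACCTG, present in 17.2% of the windows, and the second held neither. Neither the AP-1 letters TGANTCA (6.75% of windows), nor the core of the p53 family element (0.49%), nor the DR1 direct repeat read by Pparg with its partner Rxr (0.0335%), was found in the 250 bases before either gene. A match is a string of letters and not a measured site. Only these exact spellings were searched, and the rarest are missing from nearly all windows, so an absent match does not show that a site is absent.

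In sorted basal cells 4 days after tamoxifen, the comparison asked what VP16;Pparg changes in basal cells without carcinogen. Col17a1 fell 2.54-fold in mutants, and it was the single member called of 8, against 2.85% of the 16413 genes tested (1.08% called lower). Col17a1 and Dst were the members whose libraries did not overlap, both lower, where 4.51% of all genes tested were lower without overlap. The median log2 fold change of the 8 was -0.247, beside 0.005 over all genes tested.

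Col17a1, the transmembrane collagen that links the plakins to the laminin, stood at 13443, 20026, 28512 and 27919 normalized counts in controls CT063, CT065, CT066 and CT067. It stood at 8315, 9568, 8256, 12404 and 5358 in mutants CT070, CT071, CT074, CT076 and CT078. All mutants lay under the lowest control, CT063, and the controls were widely spread. The means were 22475 ± 7157 (SD, n = 4) and 8780 ± 2547 (SD, n = 5), a log2 fold change of -1.34 with a standard error of 0.27 (limma adjusted p = 0.0315). The call was lost without CT065 (0.0871), CT066 (0.103), CT067 (0.0864), CT070 (0.0622) or CT074 (0.0706), adjusted p-values of limma each, while the log2 fold change stayed between -1.57 and -1.18 over all 9 fits that left out 1 library. CT063, the control with low Y-linked genes like the mutants, was the nearest to them: against CT063 alone the log2 fold change was -0.67. A fit with 1 control library called 8 genes in all, so the lack of a call for Col17a1 there is uninformative, and the part of this division in the Col17a1 result was not tested.

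Among the cytoplasmic plakins, Dst read 9653, 12508, 10961 and 10547 normalized counts in the controls and 7151, 9340, 8451, 7705 and 8826 in the mutants. The groups did not overlap, with the highest mutant, CT071, just under the lowest control, CT063. That control is the one with low Y-linked genes like the mutants, and the part of this division in the Dst values was not tested. The log2 fold change was -0.40 with a standard error of 0.11, and it missed the threshold (limma adjusted p = 0.0794). Plec read 11067, 12513, 9511 and 10913 in controls and 13190, 11243, 9715, 9053 and 9321 in mutants, with the mutant CT070 above every control. Its log2 fold change was -0.07 (standard error 0.13, adjusted p = 0.783 by limma).

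The integrin chains took opposite signs. Itga6, the α6 chain, read 5373, 6141, 10680 and 11095 normalized counts in controls and 11470, 6443, 22461, 12426 and 9032 in mutants. The mutant CT074 stood far above the highest control while CT071 sat among the low controls, and the log2 fold change of 0.52 had a standard error of 0.35 (limma adjusted p = 0.439). Itgb4, the β4 chain found only with α6, read 21185, 19149, 15911 and 14263 in controls and 16744, 14861, 11392, 12749 and 17745 in mutants. The groups overlapped broadly (log2 fold change -0.26, standard error 0.16, limma adjusted p = 0.393). Cd151, which sits beside these integrins, read 1042 to 1343 in controls against 972 to 1797 in mutants (log2 fold change 0.19, limma adjusted p = 0.572).

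The laminin chains were a little lower in mutants and did not pass the test. Lama3 was tight in controls, at 6444, 6358, 6518 and 6734 normalized counts, and read 6073, 6520, 5122, 4552 and 5731 in mutants. The mutant CT071 alone reached the control range, and the log2 fold change was -0.23 with a standard error of 0.11 (limma adjusted p = 0.263). Lamb3 read 12018, 18717, 13300 and 13702 in controls and 7217, 10478, 11240, 12053 and 15339 in mutants. Here 3 mutants lay under all controls and CT078 lay above 3 of them (log2 fold change -0.38, standard error 0.21, limma adjusted p = 0.333).

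**Figure D1:**
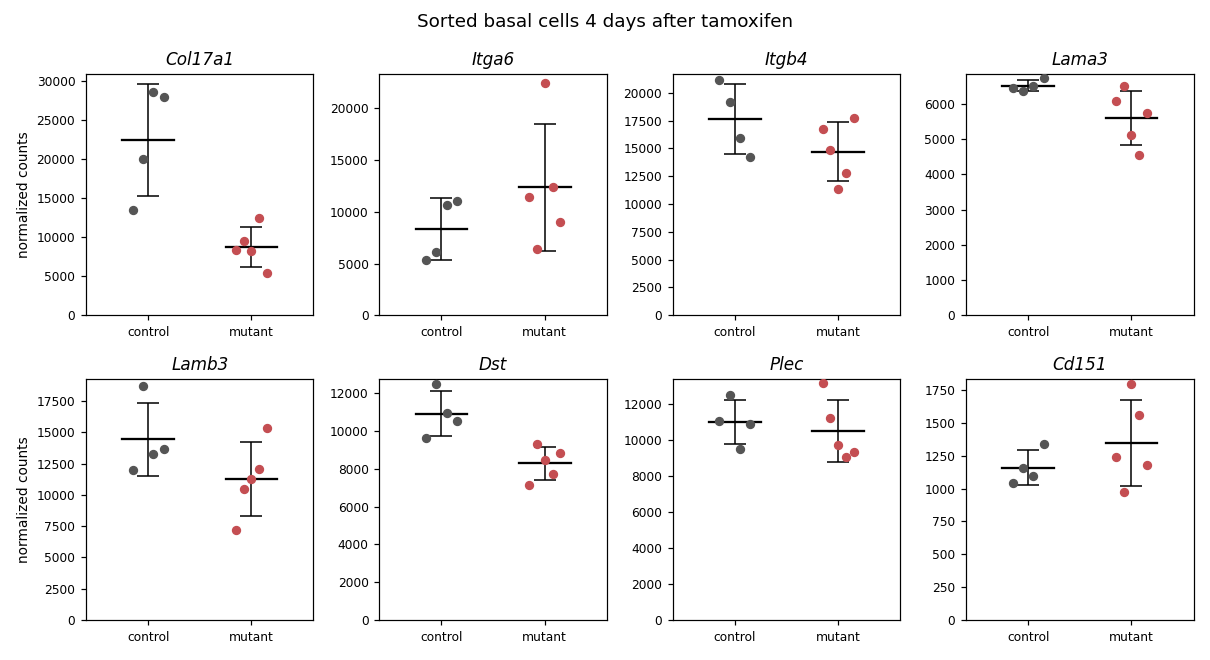
Normalized counts (linear axes) of the 8 genes in 4 control and 5 mutant libraries of sorted basal cells. Points are libraries, the long bar is the mean and the whiskers are 1 SD. All 5 mutants lie under the lowest control for Col17a1 and Dst, and the groups overlap for the other 6.

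The pathway around the members gave no call at 4 days. None of 11 anchoring partners was called in limma, 4 with positive and 7 with negative log2 fold changes: Itga3 0.11, Itgb1 -0.01, Col7a1 (the collagen of anchoring fibrils) -0.12, Krt5 -0.30, Krt14 1.89 and Trp63, a transcription factor of basal cells, -0.75 (limma adjusted p = 0.0835). Of 19 other laminin and basement membrane genes tested, of 14 other plakins and tetraspanins and of 11 genes that process laminin or collagen XVII, none was called in either direction. In the same libraries fibroblast markers summed to 11651 to 84707 normalized counts in controls and 30652 to 217371 in mutants, with 6 of 6 higher on average and Lum called. Smooth muscle markers summed to 166 to 1028 in controls and 382 to 2678 in mutants, with 5 of 5 higher on average and none called. Of 5 general epithelial markers (Cdh1, Epcam, Krt8, Krt18 and Krt19) 4 had positive log2 fold changes, with a median of 0.366 over the list and a sum of 193713 to 255295 normalized counts in controls and 208550 to 487598 in mutants. The remaining one, the epithelial adhesion gene Epcam, fell (log2 fold change -0.72, limma adjusted p = 0.0189), and the superficial keratin Krt20 rose (1.83, limma adjusted p = 0.0444). The paper counts Krt18 among luminal markers, so the general epithelial list does not measure epithelial content alone. Among fibroblast markers Dcn was lowest in CT063 (5667) and highest in CT074 (112147), the libraries with the lowest and highest Itga6. The part of these shifts in the members' values, Col17a1 and Itga6 among them, was not tested.

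Between luminal tumors and basal tumors, the question was how luminal tumors of K5VP16;Pparg mice differ from basal tumors of control mice. The paper also counted basal lesions in mutants, but no library is titled as a basal tumor of mutants. Genotype and tumor subtype therefore differ together and cannot be told apart, here and for the luminal domains below. All 8 members had negative log2 fold changes in luminal tumors, and 4 were called lower: Col17a1, Itga6, Itgb4 and Lama3. Of the 15357 genes tested 2.2% were called in either direction and 0.938% were called lower. Libraries did not overlap for 6 members, all lower, where 11.6% of all genes tested did so. The median log2 fold change of the members was -2.265, beside -0.111 over all genes tested.

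Col17a1 read 17763, 21579 and 17014 normalized counts in basal tumors CT111, CT113 and CT115, and 5012, 788 and 2168 in luminal tumors CT126, CT132 and CT140. Every luminal tumor was far under every basal tumor, and CT132 was the lowest. The means of 18785 ± 2448 and 2656 ± 2154 (SD, n = 3 each) stood beside a fitted fall of 9.13-fold (log2 fold change -3.19, standard error 0.58) (limma adjusted p = 0.0360).

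Of the integrin chains, Itga6 read 13246, 11594 and 13036 normalized counts in basal tumors and 5307, 1498 and 2635 in luminal tumors. The basal tumors were close together and the luminal ones spread, with no overlap. It fell 4.57-fold (log2 fold change -2.19, standard error 0.43, limma adjusted p = 0.0398). Itgb4 read 5417, 9128 and 9039 in basal tumors and 1630, 951 and 2229 in luminal tumors. CT111 was the low basal tumor here, still above every luminal tumor, and the fall was 5.06-fold (log2 fold change -2.34, standard error 0.39, limma adjusted p = 0.0294).

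Lama3 had the greatest fall of the 8. It read 2865, 4019 and 7543 normalized counts in basal tumors and 525, 285 and 345 in luminal tumors. The luminal tumors were low and close together while the basal tumors were spread, and the fall was 11.9-fold (log2 fold change -3.57, standard error 0.55, limma adjusted p = 0.0256). Lamb3 read 2801, 5292 and 3658 in basal tumors and 1459, 193 and 1201 in luminal tumors. The groups did not overlap, and CT132 was far under the other luminal tumors. The log2 fold change of -2.44 had a standard error of 0.71 and missed the threshold (limma adjusted p = 0.118). Lamb3 was called in 0 of the 8 fits that left out 1 library, with log2 fold changes from -2.97 to -1.52.

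The plakins were less alike. Dst read 10895, 7878 and 7261 normalized counts in basal tumors and 3859, 4274 and 2408 in luminal tumors. There was no overlap, and the log2 fold change of -1.32 (standard error 0.33) missed the threshold (limma adjusted p = 0.0783). Plec read 2256, 7520 and 8485 in basal tumors and 2519, 4735 and 4200 in luminal tumors. The basal tumor CT111 was under all luminal tumors, so the groups overlapped (log2 fold change -0.51, standard error 0.52, limma adjusted p = 0.650). Cd151 read 1637, 2482 and 989 in basal tumors and 3015, 1026 and 417 in luminal tumors, with the highest and the lowest values both in luminal tumors (log2 fold change -0.55, standard error 0.68, limma adjusted p = 0.719).

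These calls rested on the full set of libraries. Col17a1, Itga6 and Itgb4 were each called without CT140 and lost without any other library (CT111, CT113, CT115, CT126, CT132, CT128 or CT143), with limma adjusted p-values of at most 0.115, 0.134 and 0.101. Lama3 was lost without CT111 (0.0844), CT115 (0.0585), CT126 (0.0879) or CT132 (0.101), adjusted p-values of limma. The log2 fold changes stayed between -3.84 and -2.50 for Col17a1, between -2.67 and -1.75 for Itga6, between -2.62 and -2.004 for Itgb4 and between -3.88 and -3.18 for Lama3 over those fits.

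**Figure D2:**
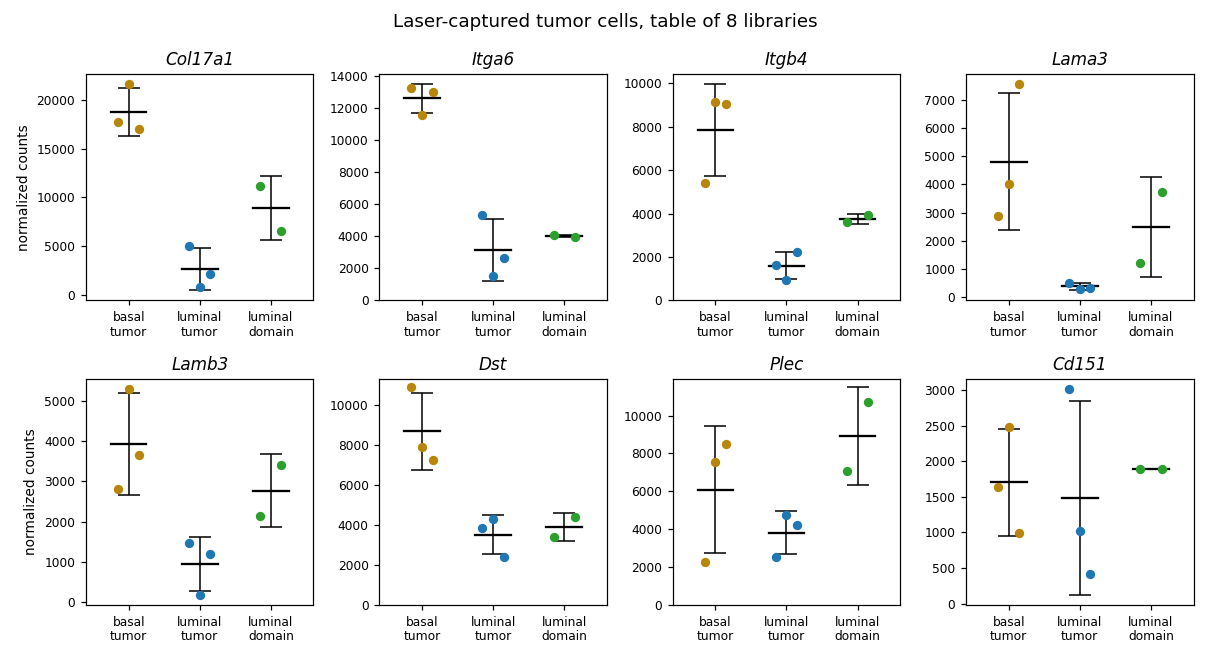
Normalized counts (linear axes) of the 8 genes in the table with 3 basal tumor, 3 luminal tumor and 2 luminal domain libraries. Points are libraries, the long bar is the mean and the whiskers are 1 SD. Every luminal tumor lies under every basal tumor for Col17a1, Itga6, Itgb4, Lama3, Lamb3 and Dst.

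Of the 11 anchoring partners 10 had negative log2 fold changes in luminal tumors and none was called in limma. They were -0.93 for Itga3 and -1.17 for Itgb1, the chains of another laminin-332 receptor, -3.77 for Col7a1, -2.20 for Krt5, -3.84 for Krt14 and -1.30 for Trp63, with limma adjusted p-values of 0.264, 0.169, 0.196, 0.260, 0.110 and 0.200. Of 19 other laminin and basement membrane genes tested, 18 were negative and Agrn (agrin, a heparan sulfate proteoglycan) was called lower (log2 fold change -1.90, limma adjusted p = 0.0403). Of 11 processing genes, Bmp1, a protease that cleaves laminin-332 chains, was called lower (-3.36, limma adjusted p = 0.0474), as was Timp3, a metalloprotease inhibitor (-7.06, limma adjusted p = 0.0315). Of 15 other plakins and tetraspanins 1 was called, Upk1a, a uroplakin of superficial cells, which rose (9.63, limma adjusted p = 0.0364). Pparg rose as well (log2 fold change 6.74, limma adjusted p = 0.0136).

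The luminal label was checked against superficial urothelial markers (uroplakins and Krt20), which summed to 743 to 8759 normalized counts in basal tumors and 91923 to 607503 in luminal tumors. The luminal tumor CT140 carried basal keratins as well. Its Krt5 of 91588 was above the basal tumor CT111 (60435), while its Krt14 of 95586 was under the lowest basal tumor, CT113 (136976). Markers of other cell types moved with the members in these tumors. Fibroblast markers summed to 44454 to 66575 normalized counts in basal tumors and 212 to 17130 in luminal tumors, with 6 of 6 lower on average and Col1a1 and Col1a2 called. Smooth muscle markers summed to 5863 to 47055 and 150 to 1229, with Acta2, Tagln and Cnn1 called lower of 5. Leukocyte markers summed to 25418 to 132113 and 577 to 9371, and endothelial markers to 1324 to 2303 and 404 to 1181, with none called. Basal urothelial markers summed to 267309 to 725807 in basal tumors and 42249 to 473273 in luminal tumors, and the Schwann cell gene Sox10 was at 0 in all 8 libraries. General epithelial markers went the other way, at 51233 to 100588 in basal tumors and 320896 to 551099 in luminal tumors, with 4 of 5 higher on average and Krt8 and Krt19 called. As that list includes the luminal marker Krt18, its sum does not separate epithelial content from luminal state. The part of these shifts in the members' values was not tested.

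The luminal domains of mixed lesions were compared with the same 3 basal tumors in a table of their own, so the comparisons with basal tumors share those libraries. Itga6 was the single member called of 8, lower in the luminal domain, against 2.53% of the 14921 genes tested (0.824% called lower). Libraries did not overlap for 4 members, Col17a1, Itga6, Itgb4 and Dst, all lower, where 12.8% of all genes tested did so. The median log2 fold change was -0.851, beside 0.01 over all genes tested.

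Itga6 read 13378, 11482 and 13018 normalized counts in basal tumors CT111, CT113 and CT115 and 4156, 4136 and 4908 in luminal domains CT128, CT143 and CT148. Both groups were tight and far apart. The fall was 2.87-fold (log2 fold change -1.52, standard error 0.23, limma adjusted p = 0.0271). Its partner Itgb4 read 5749, 9499 and 9486 in basal tumors and 3879, 4289 and 2671 in luminal domains, without overlap (log2 fold change -1.18, standard error 0.32, limma adjusted p = 0.0990). The Itga6 call was lost without CT111 (0.0933), CT115 (0.0580), CT128 (0.122), CT143 (0.128) or CT148 (0.0953), adjusted p-values of limma, while its log2 fold change stayed between -1.60 and -1.48.

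Col17a1 read 18645, 22209 and 17658 normalized counts in basal tumors and 11923, 7092 and 12446 in luminal domains. No domain reached a basal tumor, and the difference was -0.93 on the log2 scale (standard error 0.30, limma adjusted p = 0.138). Dst read 11974, 8489 and 7890 in basal tumors and 3785, 4978 and 4137 in luminal domains. It too did not overlap (log2 fold change -1.12, standard error 0.27, limma adjusted p = 0.0780). Among the laminin chains Lama3 read 3025, 4160 and 7874 in basal tumors and 1311, 4048 and 3767 in luminal domains. Only CT128 was under all basal tumors (log2 fold change -0.77, standard error 0.53, limma adjusted p = 0.457).

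Lamb3 ranged from 3007 to 5569 normalized counts in basal tumors and from 1697 to 3757 in luminal domains (log2 fold change -0.71, limma adjusted p = 0.345). Plec ranged from 2199 to 8178 and from 5822 to 10749, its log2 fold change of 0.59 (limma adjusted p = 0.570) being positive with CT111 and -0.01 without it. Cd151 ranged from 1042 to 2595 and from 1650 to 2072 (log2 fold change 0.19, limma adjusted p = 0.825), a value that turned to -0.15 without CT115 and to -0.01 under upper-quartile scaling. Of the anchoring partners none was called of 11 in limma, with log2 fold changes of -0.16 for Itga3, -0.51 for Itgb1, -1.16 for Col7a1, -0.62 for Krt5, -1.18 for Krt14 and -0.73 for Trp63. Bmp1 was the processing gene called, lower, of 10 tested (log2 fold change -2.90, limma adjusted p = 0.0341). Pparg rose (6.31, limma adjusted p = 0.0239). Fibroblast markers summed to 45948 to 70263 normalized counts in basal tumors and 5011 to 31289 in luminal domains, smooth muscle markers to 6123 to 49561 and 1393 to 1911, and leukocyte markers to 26519 to 139044 and 8300 to 15592, each lower without overlap of the sums. Endothelial markers summed to 1446 to 2495 and 1223 to 2468. General epithelial markers, with the luminal marker Krt18 in their list, were higher at 54062 to 104138 in basal tumors and 251227 to 544008 in luminal domains. Of these, 4 of 5 were higher on average and Krt19 was called. The part of all these markers in the members' values was not tested.

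Within mixed lesions, the basal-like domain was set against the luminal domain of the libraries CT128, CT143 and CT148. No member was called, and neither was any of the 14874 genes tested (0% called), with 757 genes, 5.09%, at an unadjusted limma p under 0.05 and 20 called by limma without the mean-variance trend. Itga6 was the member whose libraries did not overlap, higher in the basal-like domain, where 5.62% of all genes tested were higher without overlap. It read 4189, 4223 and 5006 normalized counts in luminal domains and 6605, 5800 and 8807 in the basal-like domains CT129, CT144 and CT149. Every basal-like library was above every luminal one, by a log2 fold change of 0.64 with a standard error of 0.23 (limma adjusted p = 0.935).

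Col17a1 read 12187, 7343 and 12874 normalized counts in luminal domains and 11612, 9424 and 13363 in basal-like domains. The libraries mixed, with a log2 fold change of 0.11 and a standard error of 0.28 (limma adjusted p = 0.986). Dst read 3825, 5095 and 4230 and then 4435, 4508 and 6046, again mixed (log2 fold change 0.18, standard error 0.23, limma adjusted p = 0.971). Itgb4 ranged from 2751 to 4421 in luminal and from 3312 to 5601 in basal-like domains, and its log2 fold change was 0.17. Lama3 (0.15), Lamb3 (-0.26), Plec (-0.17) and Cd151 (-0.10) overlapped too, with standard errors of 0.45, 0.47, 0.36 and 0.28 that exceed each change.

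The median log2 fold change of the members between domains was 0.134, beside 0.009 over all genes tested. Of the partners, Col7a1 was higher in all basal-like libraries, at 1861 to 2542 normalized counts against 697 to 868 (log2 fold change 1.50, standard error 0.29, limma adjusted p = 0.652). Itga3 (0.29), Itgb1 (0.27), Krt5 (0.60), Krt14 (0.81) and Trp63 (0.49) overlapped, and Pparg was lower without overlap (-0.79, limma adjusted p = 0.864). Fibroblast markers summed to 5225 to 32313 in luminal and 13859 to 104068 in basal-like domains, smooth muscle markers to 1403 to 1921 and 1927 to 6586, and leukocyte markers to 8437 to 15984 and 4194 to 19765, and their part was not tested.

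**Figure D3:**
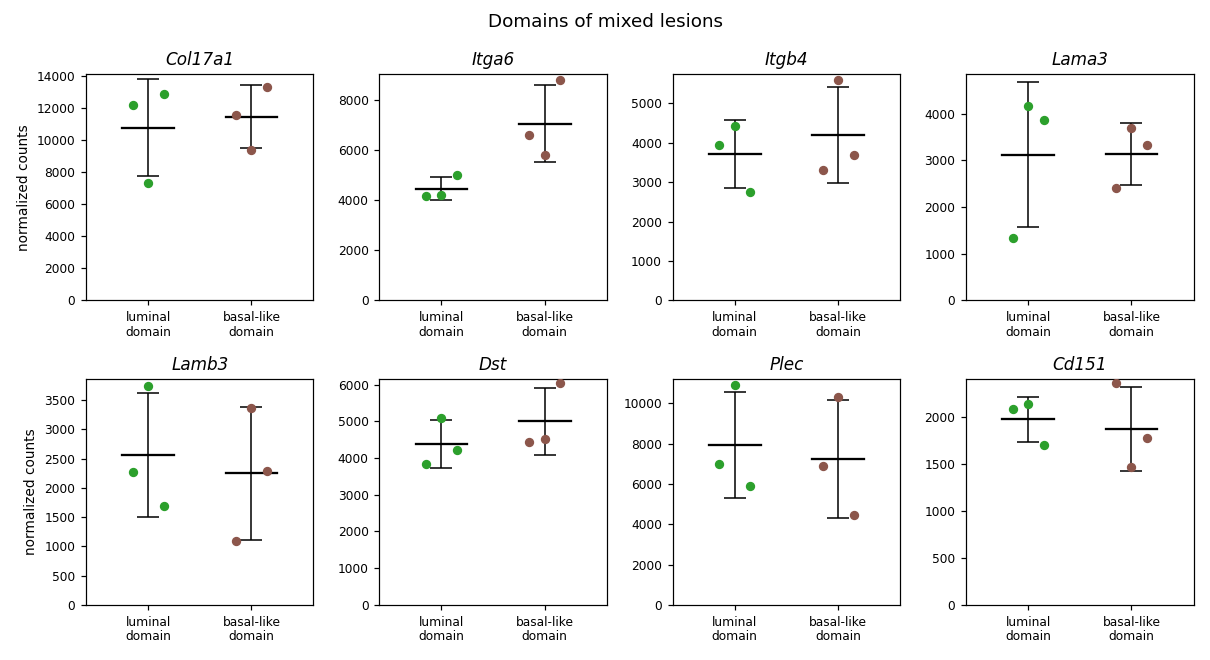
Normalized counts (linear axes) of the 8 genes in 3 luminal domain and 3 basal-like domain libraries of mixed lesions. Points are libraries, the long bar is the mean and the whiskers are 1 SD. The groups separate for Itga6, from at most 5006 to at least 5800, and overlap for the other 7.

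A contrast of luminal domains with luminal tumors, added after the values were seen, used the 2 domain libraries of the 8-library table. All 8 members had positive log2 fold changes in the domains, with a median of 1.278 beside 0.092 over all genes tested, and none was called in limma, as was none of 15357 genes tested (0% called, 723 or 4.71% at an unadjusted p under 0.05). Libraries did not overlap for 5 members, all higher, where 10.9% of all genes tested did so. Lama3 read 1224 and 3730 normalized counts in luminal domains CT128 and CT143 against 285 to 525 in luminal tumors (log2 fold change 2.52, standard error 0.61, limma adjusted p = 0.982). Col17a1 read 11194 and 6574 against 788 to 5012 (2.07, standard error 0.65), Lamb3 2128 and 3405 against 193 to 1459 (1.95, standard error 0.79), Itgb4 3602 and 3931 against 951 to 2229 (1.32, standard error 0.44) and Plec 7069 and 10729 against 2519 to 4735 (1.24, standard error 0.58). Leaving out 1 library moved the log2 fold change between 1.71 and 3.32 for Lama3 and between 1.38 and 2.71 for Col17a1. The range was 1.02 to 2.48 for Lamb3, 0.98 to 1.60 for Itgb4 and 0.94 to 1.54 for Plec. Itga6, Dst and Cd151 in the domains overlapped with the luminal tumors. Fibroblast markers in this table summed to 5086 to 29242 in the domains and 212 to 17130 in the luminal tumors, smooth muscle markers to 1270 to 1777 and 150 to 1229, leukocyte markers to 7679 to 8121 and 577 to 9371, and endothelial markers to 1081 to 2210 and 404 to 1181, and their part was not tested.

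**Figure D4:**
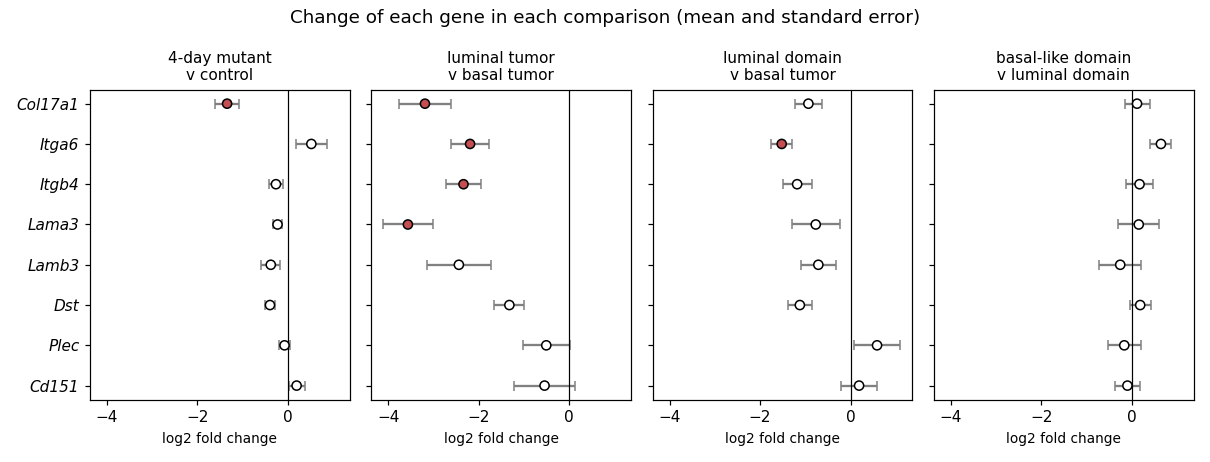
Log2 fold change of each gene (point) with its standard error (whiskers) in the 4 comparisons, each fitted in its own table with the second-named group as reference. Red points passed an adjusted p of 0.05 in limma, which were Col17a1 at 4 days, 4 genes in luminal tumors and Itga6 in luminal domains.

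Side by side, each with its own table, the log2 fold changes of Col17a1 were -1.34 at 4 days, -3.19 in luminal tumors, -0.93 in luminal domains and 0.11 between domains. Itga6 had 0.52, -2.19, -1.52 and 0.64 in the same order. Its sign at 4 days was opposite to that in luminal tumors and luminal domains, but the 4-day Itga6 values overlapped. The part of the fibroblast shift in those 4-day values was not tested. Dst had -0.40, -1.32, -1.12 and 0.18. The differences between these comparisons were not tested.

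The members varied together to different degrees across the 8 libraries of the tumor table. Pearson's r between a gene's log2 value and the mean of all 8 members, itself included, was 0.96 for Col17a1, 0.91 for Itga6, 0.95 for Itgb4, 0.96 for Lama3, 0.92 for Lamb3, 0.71 for Dst, 0.36 for Plec and 0.47 for Cd151. In the 9 libraries of the 4-day table the r was 0.88 for Col17a1, 0.75 for Dst and 0.55 for Lamb3, and 0.35 or less for the other 5. These libraries differ in group, so the r is a description of both group and library differences. The genes outside the 8 with the highest r to that mean were Tmem176b, Rnf122, Ptpre, Rin1 and Slfn3 (0.974 to 0.984) in the tumor table and Raver2, Pianp, Ccdc181, Sv2c and Otud1 (0.947 to 0.971) in the 4-day table. They were Arl4c, Strc, Myo9a, U2af2 and Cdc5l (0.976 to 0.994) over the 6 libraries of basal tumors and luminal domains, and Dusp7, F3, Ddx43, Galnt1 and Snrpa (0.987 to 0.995) over the 6 domain libraries, where r was -0.66 for Col17a1 and 0.77 for Lamb3.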

How the data were processed

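RNA-seq libraries of sorted basal cells and laser-captured tumor cells were read from the deposited tables. The values are a signal: per the labels and the study's methods, the authors estimated counts with kallisto 0.44.0 and normalized them with DESeq2 1.18, separately for each table. GRCm38 and GRCh38 stand among the builds of the submitters' processing notes. Gene coordinates came from GENCODE (GRCm38) and start-site windows from RefSeq. Since the values are not whole reads, limma 3.58.1 (R 4.3.3, eBayes with trend) was run on log2(normalized count + 1), on genes with at least 10 normalized counts in as many libraries as the smaller group. The luminal tumor fit held all 8 libraries of its table as 3 groups. Columns were matched to groups by the tables that the labels name. For 8 columns, of untreated and BBN-treated urothelium, no label says which is which, so they were not used. The authors' lists of their own fold changes and p-values were not used. The fit was tested on simulated data. Members and gene lists were chosen with earlier results of these data known. Named outside the 8 were Itga3, Itgb1, Col7a1, Krt5, Krt14, Trp63 and Pparg, list genes that were called, and the 5 genes most like the members in each table. Fabp4 and Dcn were named as well, after the values were seen. A further gene of the partner list is not reported here. Alternatives were another pseudocount (5), no filter, a filter of 50, no trend, upper-quartile or quantile scaling, array weights, other sets of libraries and leaving out each library. Figures were drawn with matplotlib 3.10.9.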

Additional observations from a re-analysis of the deposited data

How the results depend on the processing

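The deposited values hold no read depth, so a counting error cannot be given, and groups of 2 to 5 libraries limit the precision of each fold change. No paired analysis was possible because the columns carry library codes and not the replicate numbers of the labels. The domain codes are adjacent (CT128 and CT129, CT143 and CT144, CT148 and CT149), but no label ties adjacent codes to 1 lesion. A fit blocked on them was not run. Between adjacent codes Itga6 was higher and Plec lower in each basal-like library, and the other members differed in both directions. At 4 days, 467 genes and 1 member were called. There were 269 genes and 0 members without the trend, 1054 and 2 with array weights (Col17a1 and Dst), 2 members under quantile normalization (270 genes higher and 287 lower, against 290 and 177), 147 genes in the authors' smaller table of 3 against 3 libraries, and 8 genes and 0 members with the low Y-linked libraries alone, a choice made after seeing the data. Leaving out 1 library gave 129 to 596 genes and 0 to 1 members. For luminal tumors against basal tumors, 338 genes and 4 members became 52 and 1 without a filter, 142 and 0 without the trend, 142 and 2 with 3 against 3 libraries alone, and 513 and 2 with the luminal domains pooled in. Leaving out 1 library gave 3 genes (without CT126 or CT132) to 813 (without CT140) and 0 to 4 members, and Cd151 ran from -1.28 to 0.15. Upper-quartile scaling moved the median of all genes to -0.32 there (147 genes higher and 167 lower, against 194 and 144), and without the trend 48 were higher and 94 lower. For luminal domains against basal tumors, 377 genes and 1 member became 144 without a filter, and 107 and 0 without the trend. Leaving out 1 library gave 0 (without CT128 or CT143) to 467 genes (without CT113) and 0 to 1 members, with Plec from -0.014 to 0.933 and Cd151 from -0.15 to 0.50. Under upper-quartile scaling Cd151 was -0.015 there. Between domains, 0 genes became 20 without the trend, and Cd151 was 3e-04 under upper-quartile scaling. Leaving out 1 library gave 0 genes, and ranges across 0 for Col17a1 (-0.14 to 0.26), Itgb4 (-0.0568 to 0.322), Lama3 (-0.38 to 0.44), Lamb3 (-0.62 to 0.19), Plec (-0.47 to 0.14) and Cd151 (-0.279 to 0.0615). For luminal domains against luminal tumors, it gave 0 to 1 genes, and Dst ran from -0.0707 to 0.369. Of the members' fold changes under alternatives, 482 kept their sign and side of the threshold, 50 kept the sign and lost the call, 3 gained it and 17 changed sign.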
